A study of Mus musculus with 6 samples.

Results

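The lysosomal genes described here are 45 of the 32285 genes in the tables: 8 cathepsins, 13 other hydrolases and lumen proteins, 6 membrane proteins, 15 genes of the vacuolar proton pump (V-ATPase) and 3 transcription factors that act on lysosomal genes. They were picked by symbol, and all 45 had a row in each of the 6 tables. The libraries are droplet single-cell RNA-seq of organoids, small cultures in Matrigel, grown for 15 days from esophageal epithelial cells of C57BL6 mice. The founder cells were positive for integrin-b1, which basal cells use to hold on to the matrix, took up no DAPI, a dye that enters dead cells, and were sorted by Cyto-ID, a dye of autophagic vesicles, into Cyto-ID Low and Cyto-ID High. Each group had 3 libraries, labelled F2, M3 and F6; the labelled age of 15 days equals the culture time and was read as such, and no label says whether a replicate is 1 animal or a pool. The sort was made on the founders and not on the cells that were sequenced. The cells kept were the 25154 of 26808 barcodes with 500 or more non-zero genes. They were divided into 2 layers by the deposited value of Krt13, a keratin of the suprabasal layers: 15202 cells had a value below 3 and 9952 had 3 and more, a limit that stands for 1909 CPM (counts of UMIs, the unique molecular identifiers that mark each captured transcript, per 1000000 UMIs of a cell).

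As background, the lysosome is the acidic compartment in which cells break down material delivered by endocytosis and autophagy. The V-ATPase pumps protons into it through a membrane-embedded V0 sector driven by an ATP-splitting V1 sector on the cytosolic face. Cathepsins are its proteases, glycosidases and lipid hydrolases split sugars and lipids, and LAMP proteins coat the inner face of its membrane. TFEB, TFE3 and MITF are related transcription factors that bind the palindrome CACGTG, with flanking bases, in promoters of lysosomal genes. In stratified epithelium, basal cells divide and attach to the matrix, and suprabasal cells differentiate and, toward the surface, lose their organelles.

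RefSeq promoters (GRCm38.p6, 300 bases each, from 250 before to 50 after the start) were matched by symbol for 37 of the 45 genes. The 7 letters TCACGTG, read on either strand and containing CACGTG, were present in at least 1 promoter of 11 of the 37 genes, or 29.7%, against 4.29% of all 27025 genes of the table counted the same way. CACGTG alone was in 12 of the 37, against 8.09% of all. Counted by promoter, 3.77% of all 32851 windows held the 7 letters and 7.15% held CACGTG. A letter match is a description and not a bound site. The match nearest the start is shown for each of the 11 genes, because these genes hold CACGTG with the flanking base searched for; the twelfth gene with CACGTG, Ctsl, lacks that base. Capitals mark the 7 letters, and each sequence runs 5′ to 3′ on the strand of the gene.
Atp6v0b: ggtcggcgcaTCACGTGcgccggtcag
Atp6v0d1: cctactgcggTCACGTGagacgcggtg
Atp6v0e: agcgcgccgaTCACGTGagcctctgtt
Atp6v1a: tttttttaaaTCACGTGataggcttaa
Ctsa: atgcagatgcTCACGTGaccagagcta
Ctsd: cgcccgcgtcTCACGTGacccgttgag
Gaa: ttctgtgcgaTCACGTGtttgactctg
Glb1: tgcttctgagTCACGTGgcctacagag
Lamp1: cgtgaccacaTCACGTGcggaacggag
Lgmn: ggaatgtctgTCACGTGgtccatttta
Mcoln1: ggcgccccgcTCACGTGaccgcggcgc
The windows lie at chr4:117887332-117887358 (minus strand) for Atp6v0b, chr8:105566052-105566078 (minus) for Atp6v0d1, chr17:26676388-26676414 (plus) for Atp6v0e and chr16:44139375-44139401 (minus) for Atp6v1a. Those of the protease genes lie at chr2:164833767-164833793 (plus) for Ctsa, chr7:142387910-142387936 (minus) for Ctsd and chr12:102439126-102439152 (minus) for Lgmn. The others are at chr11:119267812-119267838 (plus) for Gaa, chr9:114401019-114401045 (plus) for Glb1, chr8:13159135-13159161 (plus) for Lamp1 and chr8:3500463-3500489 (plus) for Mcoln1. By group, the 7 letters were found in a promoter of 4 of 11 V-ATPase genes, 2 of 6 cathepsin genes, 3 of 12 genes of the other hydrolases and lumen proteins, 2 of 5 membrane protein genes and none of the 3 regulators.

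Depth differed between libraries, with median UMIs per cell from 1940.5 in the Cyto-ID High F6 library to 10038 in the Cyto-ID High F2 library and 153700756 UMIs in all. Between 0 and 10 barcodes were shared by any 2 libraries. Cells with Krt13 of 3 and more made up 43.6% ± 1.65 (SD, n = 3) of Cyto-ID Low and 35.7% ± 12.8 (SD, n = 3) of Cyto-ID High libraries, with a two-sided exact permutation p of 0.4, where 3 against 3 libraries cannot go below 0.10. Of all cells, 3427, or 13.6%, lay near the limit, between 2.5 and 3.5. No label says that libraries came from separate animals, so p-values between groups measure the spread between these libraries. Those between layers measure how far the layer difference within a library varies over the 6. Deviations of same-labelled libraries from their group means correlated at 0.76 (F2), 0.58 (M3) and 0.15 (F6), so the 6 pairs of layers may not be independent.

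Over all cells the lysosomal genes differed widely in level. Ctsl (728 ± 310 CPM, mean and SD over 6 libraries) and Ctsd (670 ± 198 CPM), the cathepsin L and D proteases, had the highest mean levels, followed by the tetraspanin Cd63 at 445 ± 107 CPM. This order did not hold in each library: Ctsl lay below Ctsd in 3 of 6, and in Cyto-ID High M3 Atp6v0b (642 CPM) and Atp6v0c (583) exceeded Ctsl (443). The following 5 were V-ATPase genes, Atp6v0c (393 ± 111 CPM), Atp6v0b (386 ± 162 CPM), Atp6v1g1 (361 ± 50.5 CPM), Atp6v0e (361 ± 40.8 CPM) and Atp6v1e1 (341 ± 27.7 CPM), whose means differ by less than their spread. One 3′ end is counted per transcript, so these levels were not divided by length. At the low end, Mcoln1, a calcium channel of the lysosomal membrane, had 4.89 ± 0.529 CPM, Tfeb 6.17 ± 1.36 CPM and Mitf 1.12 ± 0.271 CPM. Ctss, the cathepsin of antigen-presenting cells, had 17 UMIs in all 6 libraries together and entered no test.

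Between the layers, 14 of 15 genes of the proton pump were called higher, and the other lysosomal genes were called in both directions. Of 44 genes tested, 26 were higher and 8 lower in cells with Krt13 of 3 and more than in cells below 3 (limma on log2(CPM + 1), scaled by trimmed means of M values, TMM, library as a block, Benjamini-Hochberg adjusted p below 0.05, 6 pairs). The background is large: 31.7% of the 11995 genes tested were higher and 28.9% lower. The V-ATPase supplied 14 of the 26 higher calls, from 15 genes, with a median log2 difference of 0.74. The other 29 genes tested gave 12 higher and 8 lower calls with a median of -0.02, beside -0.003 over all genes. The counts depended on the scaling. With plain CPM the median of all genes moved by -0.38, the background became 15.2% higher and 57.9% lower, and the lysosomal calls became 12 higher and 19 lower. The V-ATPase still had 10 of 15 genes higher and 2 lower with plain CPM, at a median of 0.32, the 2 being Atp6v1c1 and Atp6v1h, and the other genes had 2 higher and 17 lower of 29, at a median of -0.41. When UMIs per cell were compared with no scaling between layers, 24 were higher and 9 lower. The median of all genes was then -0.03, and the shares of all genes called are not given here. Values below are CPM divided by the TMM factor, called scaled CPM.

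**Figure D1:**
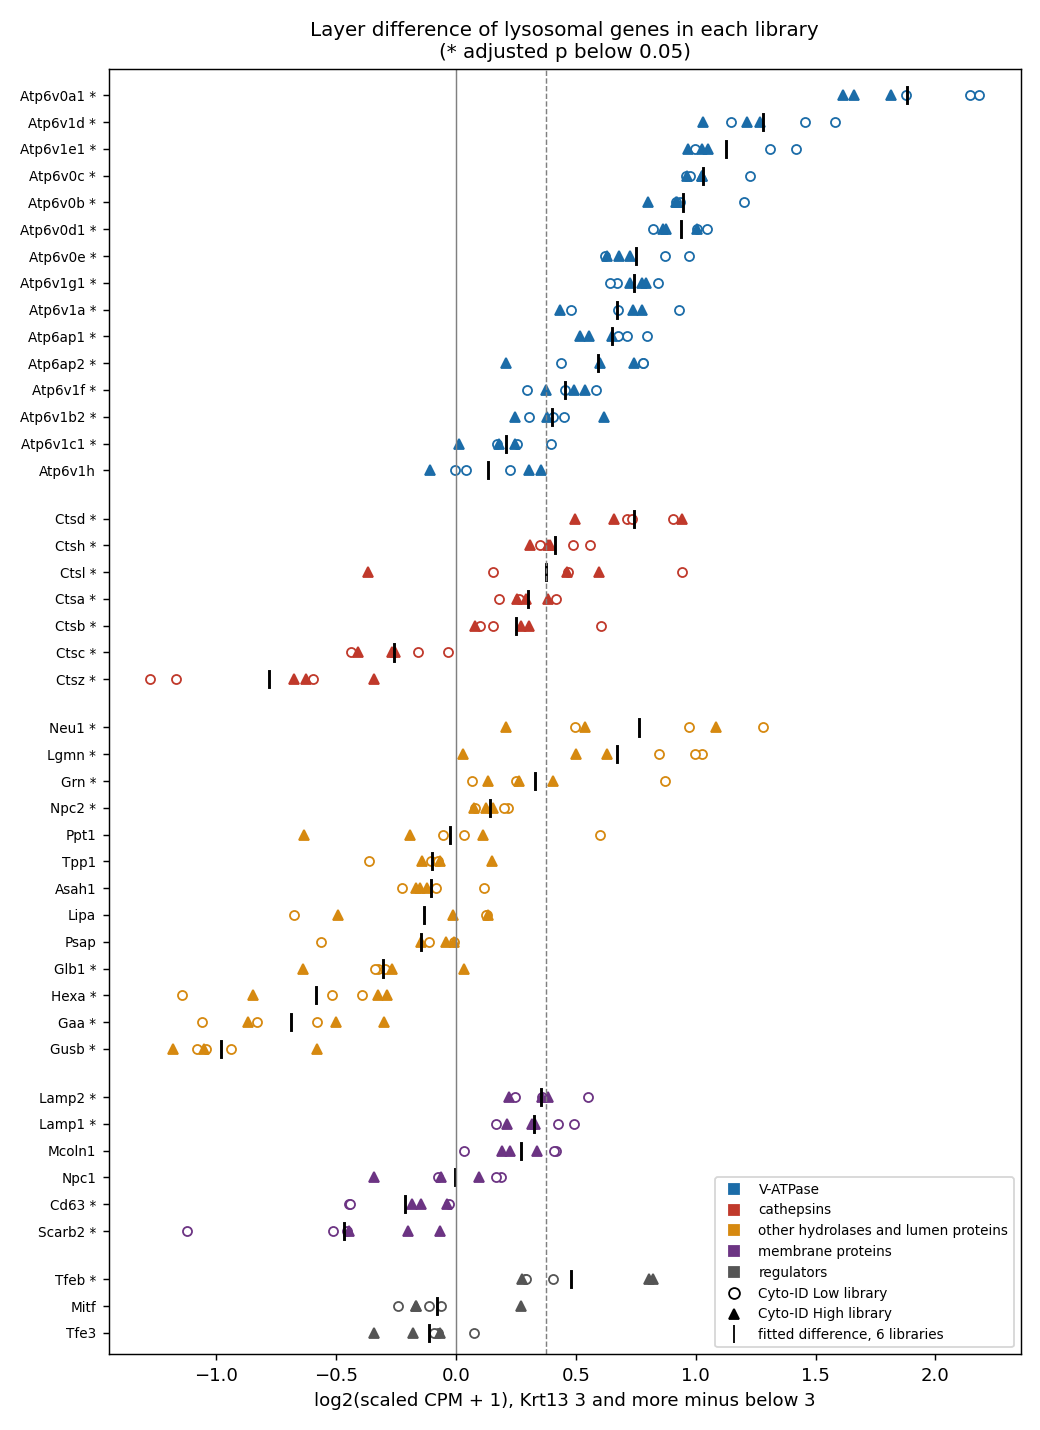
Difference in log2(scaled CPM + 1) between cells with Krt13 of 3 and more and cells below 3 (horizontal axis) for the 44 lysosomal genes tested (rows), with 1 symbol per library (open circles Cyto-ID Low, filled triangles Cyto-ID High), the fitted difference as a bar and a star where the adjusted p is below 0.05. All V-ATPase bars lie right of 0, 14 of them called, and the dashed line, at 0.38, marks how far the median of all genes moves with plain CPM.

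Atp6v0a1, the a1 isoform of the large V0 subunit through which protons pass, had the largest difference of all 44 genes. Its scaled CPM below and above the Krt13 limit was 13.0 and 61.0 in Cyto-ID Low F2, 15.9 and 52.4 in Cyto-ID High F2, and 11.9 and 46.2 in Cyto-ID Low M3. In the other 3 libraries it was 12.4 and 46.2 (Cyto-ID High M3), 14.5 and 69.5 (Cyto-ID Low F6) and 21.7 and 68.7 (Cyto-ID High F6). The layers did not overlap in any pair of libraries, and the log2 difference was 1.88 (SE 0.09, limma adjusted p 4.9e-09). Atp6v1d, the D subunit of the rotating central shaft, rose from 55.1 ± 7.01 to 135 ± 15.8 scaled CPM (SD, n = 6; log2 difference 1.28, SE 0.08). Atp6v1e1, a peripheral stalk subunit, rose from 235 ± 15.3 to 516 ± 45.8 scaled CPM (1.13, SE 0.07).

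The proton-carrying ring of V0 is made of c and c″ subunits. Atp6v0c, the c subunit, went from 281 ± 81.1 to 572 ± 145 scaled CPM (log2 difference 1.03, SE 0.05), and Atp6v0b, the c″ subunit, from 283 ± 123 to 547 ± 229 scaled CPM (0.95, SE 0.06). Both were higher in 6 of 6 libraries, although the libraries themselves spread widely: Atp6v0b in the lower layer ranged from 168 in Cyto-ID High F6 to 490 in Cyto-ID High M3, so its layers overlap between libraries but not within any. Atp6v0d1, which links the ring to the shaft, rose from 41.9 ± 4.05 to 81.0 ± 7.06 scaled CPM (0.94, SE 0.06). Atp6v0e went from 284 ± 35.2 to 478 ± 48.9 scaled CPM (0.75, SE 0.06), and Atp6v1g1, a second stalk subunit, from 283 ± 27.1 to 475 ± 55.6 scaled CPM (0.74, SE 0.05). Annotated pseudogene copies of Atp6v0c exist, and how reads shared with them were counted is not given in the sources used here.

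In the catalytic and regulatory parts of V1, Atp6v1a, the catalytic A subunit, had 51.5 ± 6.72 and 83.7 ± 18.2 scaled CPM, and Atp6v1b2, the nucleotide-binding B subunit, 41.8 ± 6.90 and 55.1 ± 6.01. Both were called higher; with plain CPM the sign for Atp6v1b2 turned, to -0.02 on the log2 scale. Atp6v1c1, which clamps V1 to V0, had 32.9 ± 4.58 and 38.3 ± 5.69 scaled CPM. Its call (adjusted p 0.0257, limma) was lost without Cyto-ID Low F2 (0.062), Cyto-ID High F2 (0.0543) or Cyto-ID High M3 (0.0696), in cells thinned to 1000 UMIs each (0.129) and over cells with 1000 or more genes (0.0538). It was also lost with UMIs per cell (0.13) and over the 3 libraries of highest depth (0.0793), both tried after seeing the data, and with plain CPM it was called lower. Atp6v1h, the H subunit that silences free V1, was the only V-ATPase gene not called, at 15.3 ± 1.95 and 17.1 ± 3.38 scaled CPM and an adjusted p of 0.243. The accessory subunits Atp6ap1 (45.8 ± 7.95 and 72.1 ± 9.83) and Atp6ap2 (22.7 ± 3.48 and 35.3 ± 8.87) were called higher, as was Atp6v1f, a central shaft subunit (257 ± 51.7 and 350 ± 52.5).

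The a subunit has further isoforms, which are not among the 45 genes but belong to a list of 14 V-ATPase isoforms and assembly factors. Of these, 8 were tested, 4 were higher and 2 lower (3 and 4 with plain CPM). The shares over all genes were 31.7% and 28.9% (15.2% and 57.9% with plain CPM). Atp6v0a2, the a2 isoform known from the Golgi, rose from 12.8 ± 1.62 to 27.6 ± 7.97 scaled CPM (SD, n = 6; log2 difference 1.02, adjusted p 4.4e-06). Tcirg1, the a3 isoform known from lysosomes and osteoclasts, fell from 20.5 ± 4.09 to 11.2 ± 4.47 scaled CPM (-0.91, adjusted p 0.000838), lower in 6 of 6 libraries. Below the Krt13 limit, Atp6v0a1 exceeded Tcirg1 in 1 of 6 libraries, with ratios from 0.529 to 1.18. Above it, Atp6v0a1 exceeded Tcirg1 in 6 of 6, with ratios from 2.95 to 19.4, the highest in Cyto-ID High F6, where Tcirg1 had 3.54 scaled CPM. These 3 isoforms kept their direction with plain CPM. Atp6v0a4, the a4 isoform of acid-secreting cells, was also called higher but was at 0 in both layers of Cyto-ID Low F6 and no higher than 5.71 scaled CPM in any.

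**Figure D2:**
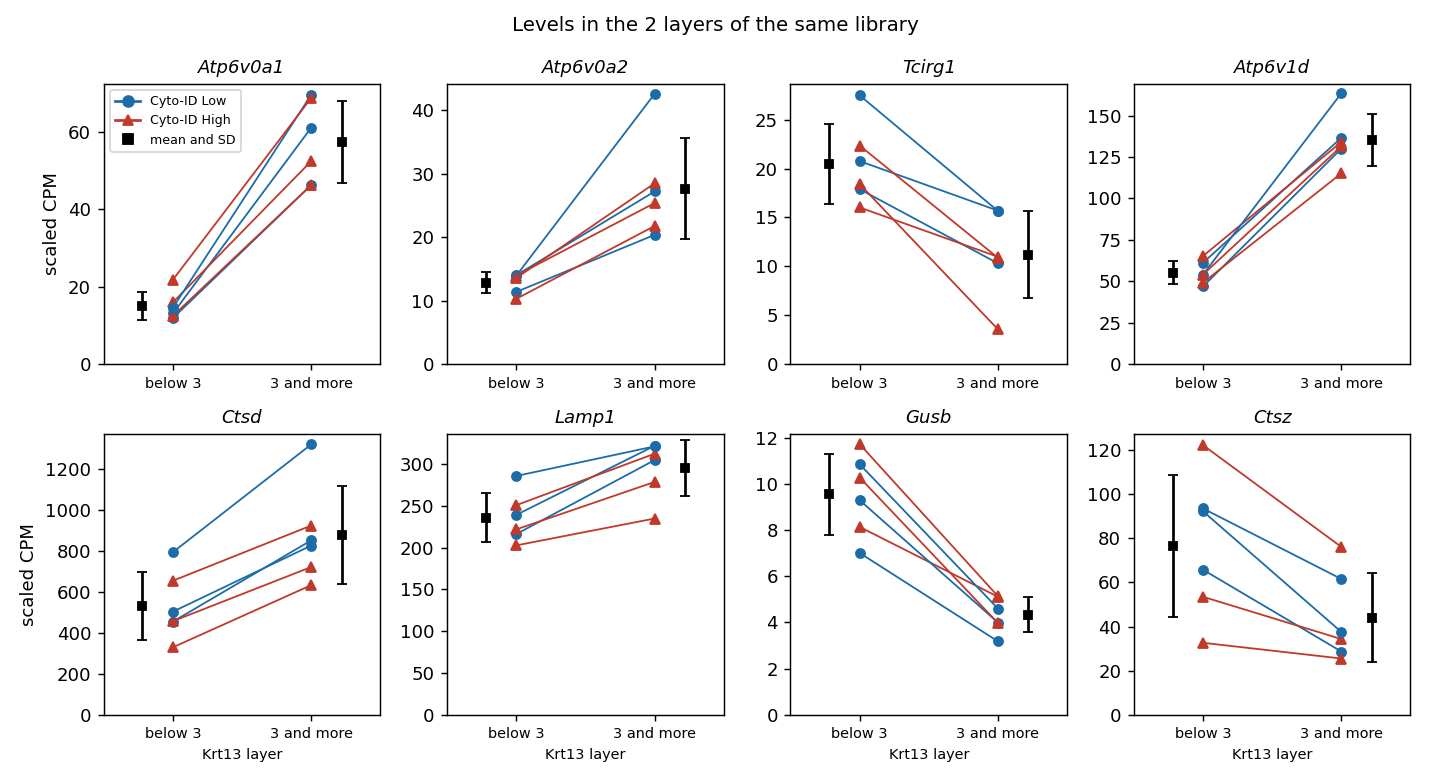
Scaled CPM (vertical axes, from 0) of 8 genes in cells with Krt13 below 3 and with 3 and more, with each line joining the 2 layers of 1 library (blue circles Cyto-ID Low, red triangles Cyto-ID High) and squares giving the mean and SD of 6 libraries. Atp6v0a1, Atp6v0a2, Atp6v1d, Ctsd and Lamp1 go up in all 6 lines, and Tcirg1, Gusb and Ctsz go down in all 6.

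Among the cathepsins, 5 of 7 tested were higher and 2 lower above the Krt13 limit, with a median log2 difference of 0.30. With plain CPM 1 was higher and 3 were lower. Over all genes 31.7% were higher and 28.9% lower, or 15.2% and 57.9% with plain CPM. Ctsd, the main aspartic protease, had 453 and 850 scaled CPM in Cyto-ID Low F2, 456 and 720 in Cyto-ID High F2 and 502 and 825 in Cyto-ID Low M3. In Cyto-ID High M3 it had 653 and 922, in Cyto-ID Low F6 792 and 1318, and in Cyto-ID High F6 328 and 632. It rose in every library (log2 difference 0.74, SE 0.06, limma adjusted p 5.4e-07), although the layers overlap between libraries. Ctsd kept its call with plain CPM (0.32).

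Ctsz, a cysteine carboxypeptidase, moved the other way, from 76.7 ± 32.3 to 44.0 ± 20.3 scaled CPM (log2 difference -0.78, SE 0.11), lower in 6 of 6 libraries. Ctsc, which activates serine proteases, was also lower, at 230 ± 70.0 and 192 ± 57.0 scaled CPM. Ctsl was unlike the rest in its spread: its log2 difference ran from -0.37 in Cyto-ID High F6 to 0.94 in Cyto-ID Low F2. The call for Ctsl (adjusted p 0.0193, limma) was lost without Cyto-ID High F2 (0.0529) or Cyto-ID High M3 (0.0591), with a Krt13 limit of 4 (0.132, difference 0.21) and with no filter on low values (0.108). The exopeptidase Ctsh (120 ± 35.0 and 161 ± 49.5), the carboxypeptidase Ctsa (32.6 ± 7.85 and 40.1 ± 8.07) and Ctsb (203 ± 29.4 and 242 ± 36.5 scaled CPM) were called higher. With plain CPM the differences of Ctsa, Ctsb, Ctsh and Ctsl turned negative, and Ctsb was called lower (-0.17, adjusted p 0.0352). The call of Ctsb was lost with a Krt13 limit of 4 (log2 difference 0.06, limma adjusted p 0.4), in thinned cells (0.243) and over cells with 1000 or more genes (0.0599), that of Ctsa in thinned cells (0.633), and that of Ctsc with a limit of 2 (0.0529) and over the 3 deepest libraries (0.0822).

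The other hydrolases and lumen proteins went both ways, with 4 of 13 higher, 4 lower and 5 not called. These counts are close to the shares over all genes, 31.7% higher and 28.9% lower. With plain CPM 1 was higher and 10 were lower, beside 15.2% and 57.9% over all genes. Neu1, a sialidase that works in a complex with Ctsa and Glb1, rose from 13.1 ± 2.5 to 23.9 ± 7.99 scaled CPM (log2 difference 0.76, SE 0.13). Lgmn, the asparaginyl protease legumain that processes cathepsins, had 15.4 ± 5.43 and 25.9 ± 11.4 scaled CPM and was called higher. Called lower were Gusb, Gaa, Hexa and Glb1. Gusb, β-glucuronidase, fell from 9.56 ± 1.76 to 4.33 ± 0.762 scaled CPM (-0.98, SE 0.12), and its 6 values below the limit, from 7.01 to 11.7, lay above all 6 values beyond it, from 3.18 to 5.14. Gaa, which degrades lysosomal glycogen, had 21.9 ± 7.32 and 12.7 ± 2.02 scaled CPM, and Hexa, a hexosaminidase subunit, 25.3 ± 8.50 and 16.8 ± 6.72. Glb1, β-galactosidase, had 15.7 ± 4.30 and 12.7 ± 4.25; its adjusted p of 0.0218 (limma) became 0.0542 without Cyto-ID Low F2, 0.0563 without Cyto-ID Low M3 and 0.057 without Cyto-ID High F6. In thinned cells the difference of Glb1 was -0.07 in place of -0.31 and was not called (0.759). The 4 were called lower with TMM, with plain CPM and with UMIs per cell.

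Progranulin, Grn (69.4 ± 15.4 and 87.6 ± 19.0 scaled CPM), and the cholesterol carrier Npc2 (285 ± 78.8 and 314 ± 80.6) were called higher. With plain CPM both turned negative, and Npc2 was called lower (-0.28, limma adjusted p 0.000627). The call of Npc2 (adjusted p 0.0241, limma) was lost without Cyto-ID High F2 (0.0653) or Cyto-ID Low F6 (0.0548), with a Krt13 limit of 2 (0.612, log2 difference 0.03) and in thinned cells (0.526, difference 0.05). It was also lost with UMIs per cell (0.1), over the 3 deepest libraries (0.254) and over cells with 1000 or more genes (0.0543). Psap, the precursor of the saposins, Asah1, an acid ceramidase, Lipa, an acid lipase, and the peptidase Tpp1 and thioesterase Ppt1 were not called. Psap had 191 ± 40.5 and 170 ± 16.1 scaled CPM at an adjusted p of 0.0994, and all 5 were called lower with plain CPM.

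Of the 6 membrane proteins, 2 were higher, 2 lower and 2 not called. These counts are close to the shares over all genes, 31.7% higher and 28.9% lower, or 15.2% and 57.9% with plain CPM. Lamp1 and Lamp2, the abundant glycoproteins of the lysosomal membrane, were higher in 6 of 6 libraries, Lamp1 from 236 ± 29.7 to 296 ± 33.8 and Lamp2 from 183 ± 20.5 to 235 ± 41.4 scaled CPM. Scarb2, a membrane receptor of the lysosome, was lower in 6 of 6, at 57.4 ± 10.3 and 41.3 ± 7.88 scaled CPM. Cd63 was lower, at 450 ± 125 and 385 ± 92.0 scaled CPM, with an adjusted p of 0.0142 (limma) that became 0.0757 without Cyto-ID Low F2, 0.0503 with no filter on low values, 0.0836 over cells with 1000 or more genes and 0.0589 over the 3 deepest libraries. Npc1, the cholesterol exporter, had 23.8 ± 4.42 and 24.3 ± 7.31 scaled CPM, and Mcoln1 4.34 ± 0.640 and 5.42 ± 0.481, neither called. With plain CPM none of the 6 was higher and 3 were lower, and the differences of Lamp1 and Lamp2 turned negative (-0.10 and -0.07), each lower in 5 of 6 libraries.

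Among the transcription factors, Tfeb was called higher above the Krt13 limit. Its scaled CPM in the 2 layers was 4.92 and 6.23 in Cyto-ID Low F2, 4.77 and 5.99 in Cyto-ID High F2, and 6.53 and 8.21 in Cyto-ID Low M3. It was 4.68 and 8.93 in Cyto-ID High M3, 6.48 and 8.89 in Cyto-ID Low F6 and 3.35 and 6.69 in Cyto-ID High F6, higher in 6 of 6 (log2 difference 0.48, SE 0.13, limma adjusted p 0.00609). The gene is sparse, at 892 UMIs over all libraries, and the difference was not called with plain CPM (0.11, adjusted p 0.482), in thinned cells (0.271), with a Krt13 limit of 4 (0.0717) or over the 3 deepest libraries (0.134). Tfe3 had 16.7 ± 2.49 and 15.4 ± 2.5 scaled CPM and Mitf 1.11 ± 0.242 and 0.988 ± 0.145, neither called. Beside these levels, the 11 genes tested whose promoters hold TCACGTG had 8 higher and 2 lower calls and a median log2 difference of 0.67, and the 25 with a promoter without it had 13 higher and 6 lower calls and a median of 0.14. With plain CPM these counts were 5 higher and 2 lower of the 11, and 6 higher and 12 lower of the 25. Over all genes 31.7% were higher and 28.9% lower with TMM, and 15.2% and 57.9% with plain CPM. Of the 11 genes 4 are V-ATPase genes, and of the 25 genes 7 are. The V-ATPase genes with the largest rises, Atp6v0a1, Atp6v1d, Atp6v1e1 and Atp6v0c, had promoters without TCACGTG. Among the genes with it outside the V-ATPase, Ctsa, Ctsd, Lgmn and Lamp1 were called higher, Gaa and Glb1 lower, and Mcoln1 was not called. The part of the transcription factors in these differences was not tested.

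The layer difference was also graded. In 4 ranges of the Krt13 value (below 1.5, 1.5 to below 3, 3 to below 4.5, and 4.5 and more), mean scaled CPM rose at each step for 14 of 15 V-ATPase genes, and all 15 were highest in the last range. Within single libraries the rise at each step was less regular for some. It held in 5 of 6 for Atp6ap1 and Atp6ap2, 3 of 6 for Atp6v1c1 and Atp6v1f, 2 of 6 for Atp6v1b2 and 1 of 6 for Atp6v1h. Atp6v0a1 had 12.7 ± 3.5, 19.0 ± 5.57, 47.0 ± 11.2 and 70.0 ± 14.2 scaled CPM over the ranges and rose at each step in 6 of 6 libraries. Ctsd had 515 ± 163, 564 ± 170, 787 ± 227 and 973 ± 237 scaled CPM, also with each step upward in 6 of 6. Ctsl and Ctsb had their highest means in the third range, at 887 ± 483 and 260.5 ± 44.7 scaled CPM, and lower means of 736 ± 339 and 201 ± 26.7 in the last. Falling means at each step were seen for Ctsz, Glb1, Hexa, Gusb, Psap, Cd63 and Scarb2, among them Gusb at 10.5 ± 1.85, 8.01 ± 2.2, 4.56 ± 0.978 and 3.83 ± 0.838. The ranges are a description and no test was run on them. They were not repeated with plain CPM, and the share of all genes rising or falling in this way is not given here.

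**Figure D3:**
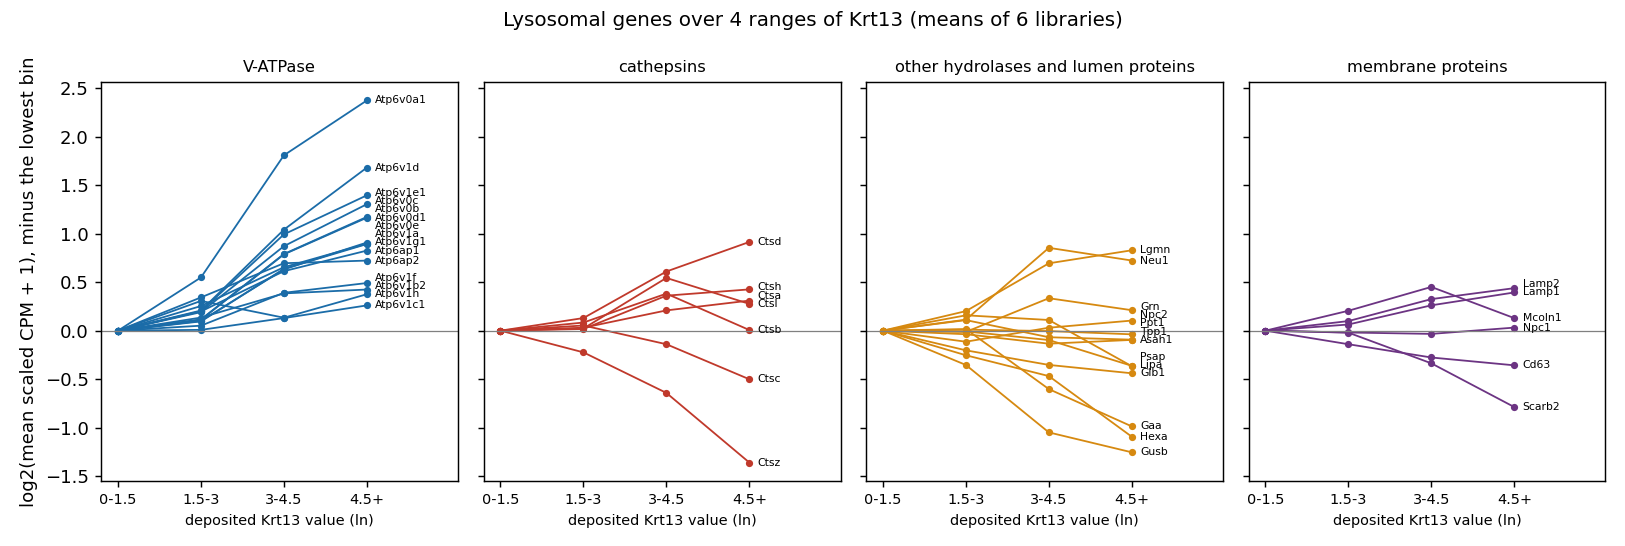
Mean scaled CPM of 6 libraries over 4 ranges of the deposited Krt13 value (horizontal axis, natural log units), drawn as log2(mean + 1) minus its value in the lowest range (vertical axis), with 1 line per gene and 1 panel per group. The V-ATPase lines all end above 0, with Atp6v0a1 the steepest, and the hydrolases and membrane proteins fan out to both sides.

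Further lists on the same pathway are counted beside the same background, 31.7% higher and 28.9% lower, or 15.2% and 57.9% with plain CPM. Of 31 further lysosomal hydrolases and lumen proteins, 30 were tested, 7 were higher and 7 lower, with a median of 0.03; with plain CPM 3 were higher and 18 lower. Of the genes called lower, Ctsf, a cathepsin, and Gla, α-galactosidase A, fell by 0.93 and 0.87 on the log2 scale. Of 18 further membrane proteins, 6 were higher and 1 lower (3 and 7 with plain CPM), led by the sialomucin Cd164 (0.84), the RNA transporter Sidt2 (0.79) and the transporter Abca2 (0.61 on the log2 scale, not called with plain CPM). Of 23 genes of delivery to the lysosome, 11 were higher and 1 lower (4 and 7 with plain CPM). Sort1, sortilin, a sorting receptor for lumen proteins, rose from 2.40 ± 0.188 to 10.46 ± 0.793 scaled CPM (1.75, SE 0.12). The GGA adaptors, which load such receptors into vesicles at the Golgi, moved apart: Gga2 fell from 28.1 ± 4.65 to 8.80 ± 2.89 scaled CPM and Gga1 rose from 25.1 ± 5.32 to 44.9 ± 5.20, each in 6 of 6 libraries. Of 13 partners and inhibitors of the TFE factors, 9 were tested, 3 were higher and 1 lower (1 and 5 with plain CPM); Zkscan3, a repressor of autophagy genes, rose from 24.0 ± 1.61 to 43.4 ± 6.06 scaled CPM.

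The list of cathepsin inhibitors held the gene with the largest difference of these lists. Of 8 cystatins, 6 were tested, 4 were higher and 1 lower (3 and 1 with plain CPM). Cst6, cystatin E/M of differentiating keratinocytes, had between 0.685 and 3.71 scaled CPM below the Krt13 limit and between 21.4 and 76.9 above it (log2 difference 3.93, SE 0.29). Csta1 had between 31.9 and 451 below and between 382 and 2641 above (3.09), and Stfa3 was also called higher (1.27). Csta1, Stfa2 and Stfa3 belong to a mouse stefin family of near-identical copies, so the split of reads between them is uncertain.

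Other measures moved with the layers. Krt13 chose the layers and so was higher by construction, at 391 ± 90.3 and 10306 ± 1942 CPM before scaling. The proliferation markers, 5 of 5, and 5 of 7 basal markers were lower above the limit; Krt5 and Krt14 were called higher (0.33 and 0.28 on the log2 scale) and had negative, uncalled differences with plain CPM. Median UMIs per cell were higher in the upper layer in 6 of 6 libraries, for example 7204 and 9489 in Cyto-ID Low F2. The median percentage of mitochondrial UMIs per cell was lower in the upper layer in 6 of 6, at 1.99 to 2.79 below the limit and 1.01 to 1.91 above it. When cells were thinned to 1000 UMIs each, 21 lysosomal genes were higher and 8 lower. For this, 347 cells with fewer UMIs were left out, and the layers were drawn again from the thinned Krt13 values. The shares of all genes called at this depth are not given here. The part of cell division, depth per cell and mitochondrial share in the other differences was not tested. Markers of other cell types were low over all cells: Ptprc, Adgre1, Dct, Tyr, Tyrp1, Col3a1 and Cdh5 were at 0 in every library, and the summed endothelial and smooth muscle markers stayed below 1 CPM in each. The summed fibroblast markers ran from 0.272 to 0.966 CPM in the Low and from 0.435 to 4.95 CPM in the High libraries, with Dcn reaching 2.16 and Col1a2 1.20 CPM, and the summed melanocyte markers from 0.139 to 1.19 CPM, nearly all of it Pmel. Of the 6 immune markers only Cd68, itself a lysosomal membrane protein, was above 1 CPM in any library (15.1 CPM on average). Cd68 rose between the layers from 8.90 ± 2.33 to 25.8 ± 9.16 scaled CPM (log2 difference 1.41, SE 0.12, limma adjusted p 5.2e-07), higher in 6 of 6 libraries.

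Between organoids of Cyto-ID High and Cyto-ID Low founders, no lysosomal gene passed the test. Over all cells 0 of 44 were called (limma, adjusted p below 0.05, 3 against 3 libraries), against a background of 0.12% of 11645 genes, and 1 had an unadjusted p below 0.05. In cells with Krt13 below 3 it was 0 of 44 against 0.23% of 11730 genes, with 1 below 0.05 unadjusted. In cells with Krt13 of 3 and more it was 0 of 43, without any below 0.05 unadjusted, against 0.206% of 11141 genes. No gene called in these fits, which have no replicate block, was lower in Cyto-ID High. With the replicate label as a block, 6 of the genes called over all cells, 6 below the limit and 12 above it were lower, beside 61, 75 and 74 higher, and none of either kind was lysosomal. Under the block, 2 lysosomal genes over all cells, 2 below the limit and 3 above it had an unadjusted limma p below 0.05. Over all cells 10 lysosomal genes were lower in Cyto-ID High in 3 of 3 pairs and 1 was higher in 3 of 3. Below the Krt13 limit these counts were 10 lower and 5 higher, and above it 10 lower and 1 higher. The median log2 difference of the lysosomal genes over all cells was -0.14, beside -0.02 for all genes, with 33 of 44 negative. The shares of all genes with such pairs or signs are not given here, so these counts show no excess among lysosomal genes. Over all cells the 95% interval of a lysosomal gene had a median half-width of 0.52 on the log2 scale. In 36 of 44 genes the interval lay within 1 log2 unit of 0, and in 8 it reached beyond, so that a difference of that size was not excluded for those.

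The gene with the smallest unadjusted p was Ctsl. Its scaled CPM over all cells was 1113 (F2), 684 (M3) and 894 (F6) in Cyto-ID Low and 744 (F2), 495 (M3) and 355 (F6) in Cyto-ID High. The groups overlapped, since Cyto-ID High F2 lay above Cyto-ID Low M3, but Cyto-ID High was the lower of the pair under each label (log2 difference -0.79, SE 0.34, 95% interval -1.56 to -0.03, limma unadjusted p 0.0441, adjusted 0.614). Ctsh followed, with 166 ± 15.3 scaled CPM in the Low and 114 ± 48.4 in the High libraries (SD, n = 3), at an adjusted p of 0.641 (limma). Then came Ctsc (188 ± 53.3 and 266 ± 69.1), Grn (88.0 ± 7.37 and 68.3 ± 17.2) and Lipa (13.1 ± 3.04 and 10.0 ± 1.96 scaled CPM). For the regulators over all cells, Tfeb had 6.86 ± 1.25 in the Low and 5.49 ± 1.32 in the High libraries, Tfe3 17.2 ± 2.09 and 16.5 ± 3.13, and Mitf 1.18 ± 0.0749 and 1.02 ± 0.277 scaled CPM. The V-ATPase genes centred on 0, with a median of -0.04 and a range from -0.22 to 0.16 on the log2 scale. Without the Cyto-ID High M3 library, 9 lysosomal genes had an unadjusted p below 0.05 over all cells and still none was called. The share of all genes with such a p is not given here.

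Some markers of differentiation also differed between these groups, and those of division were not called. Krtdap, a suprabasal keratinocyte protein, ran from 29.5 to 90.8 scaled CPM in the Low and from 768 to 1608 in the High libraries over all cells, without overlap (log2 difference 4.24, SE 0.43, limma adjusted p 0.00859). Without a replicate block it was the 1 called marker of 5 suprabasal ones there, and it was also called below the Krt13 limit (5.06) and above it (4.16). Its adjusted p became 0.0513 over all cells, 0.058 below the limit and 0.0536 above it without Cyto-ID High F6, 0.113 below the limit without Cyto-ID Low F6, and 0.145, 0.184 and 0.167 with no filter on low values. Sbsn, suprabasin, was called higher above the limit, at 21.8 ± 3.17 in the Low and 107 ± 22.1 scaled CPM in the High libraries (2.23, limma adjusted p 0.00836), and not without Cyto-ID Low F6 (0.0663), without Cyto-ID High F6 (0.0628) or with no filter (0.124). With the replicate label as a block Sbsn was also called over all cells (log2 difference 1.63, limma adjusted p 0.024) and below the limit (1.17, 0.0258), higher in 3 of 3 pairs in each. The suprabasal markers Krt13 (-0.39), Krt4 (-0.29) and Cnfn (-0.21 on the log2 scale) had negative differences over all cells and were not called. The 5 proliferation markers were higher in Cyto-ID High in 3 of 3 pairs over all cells, with log2 differences from 0.83 for Cdk1 to 1.30 for Birc5, and none was called. The part of these in the lysosomal values was not tested.

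**Figure D4:**
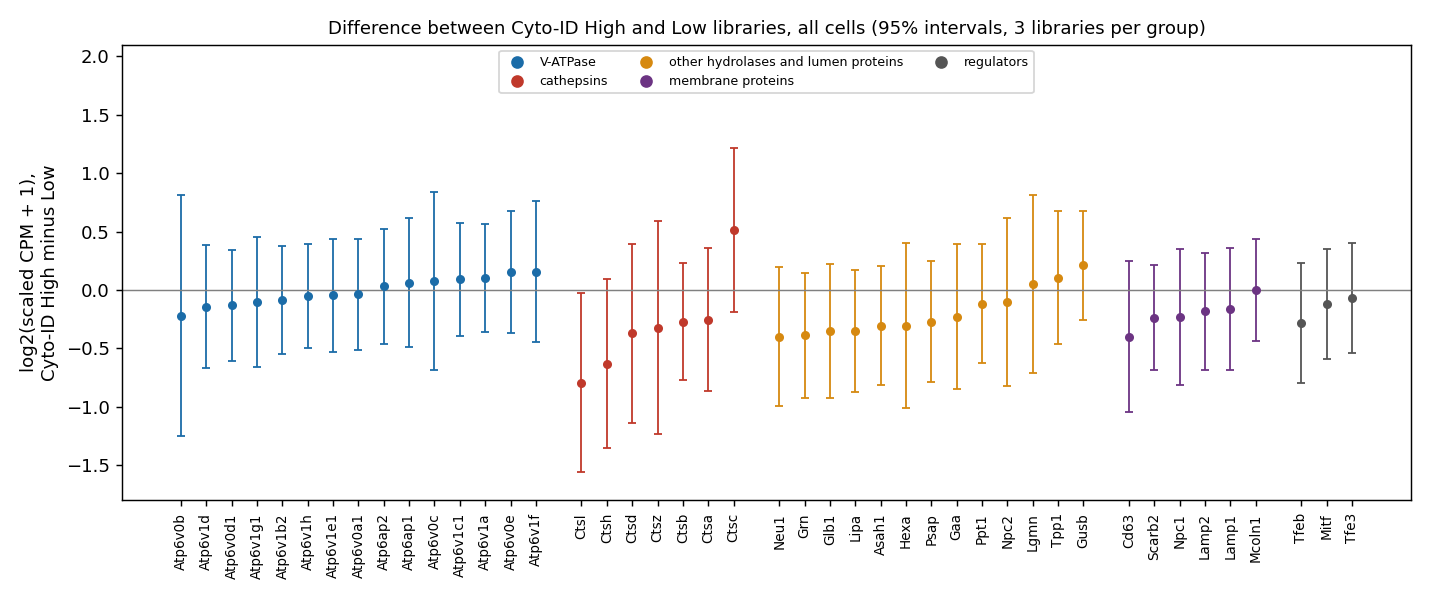
Cyto-ID High minus Cyto-ID Low in log2(scaled CPM + 1) over all cells (vertical axis) for the 44 lysosomal genes tested, grouped by role, with 95% intervals from limma on 3 libraries per group. The points lie between -0.79 for Ctsl and 0.51 for Ctsc, and the intervals of all genes but Ctsl include 0.

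Within the layers no lysosomal gene was called, and Ctsl and Ctsh had 2 of the 5 smallest p-values in each. Below the Krt13 limit the 5 smallest unadjusted p-values belonged to Ctsl, Scarb2, Ctsh, Ctsc and Tfeb. Scarb2 had 75.3 ± 6.54 in the Low and 57.6 ± 8.04 scaled CPM in the High libraries, and Tfeb 6.89 ± 1.09 and 4.97 ± 0.913. Tfe3 had 19.3 ± 1.75 and 19.3 ± 4.16 there, and Mitf 1.41 ± 0.0379 and 1.17 ± 0.387. Above it they belonged to Ctsl, Ctsh, Grn, Neu1 and Asah1, of which Ctsh had 166 ± 5.49 and 111 ± 44.6 scaled CPM. In that layer Tfeb had 6.67 ± 1.37 and 6.27 ± 1.34 and Tfe3 14.1 ± 2.61 and 12.4 ± 1.96 scaled CPM, and Mitf was too low to be tested. From the further pathway lists no gene was called in either layer but the stefin Stfa2. It had 10 (F2), 7 (M3) and 0 (F6) UMIs in the whole Cyto-ID Low libraries and 391 (F2), 63 (M3) and 269 (F6) in the Cyto-ID High ones. Stfa2 passed the filter on low values through the Cyto-ID High libraries alone, so its call is no support and its UMI numbers are given as a description. With no filter on low values it was not called (limma adjusted p 0.38 below the limit and 0.335 above it). With the replicate block Csta1 was also called below the limit (log2 difference 2.17, limma adjusted p 0.0312) and Atp6v0a4 above it (1.70, 0.0378), both higher in Cyto-ID High in 3 of 3 pairs. Atp6v0a4 was at 0 in Cyto-ID Low F6 and could not pass the filter without a Cyto-ID High library, so its call is no support either.

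The size of the layer difference was compared between the groups by the interaction of layer and group. No lysosomal gene was called (0 of 44, limma, against a background of 0.225% of 11995 genes), and 4 had an unadjusted p below 0.05. These were Lgmn, Ctsz, Scarb2 and Atp6v0a1, and Atp6v1e1 had the fifth smallest p. With the replicate block 7 lysosomal genes had an unadjusted limma p below 0.05. How many of all genes had such a p in either fit is not given here. For Lgmn the layer difference was 0.96 ± 0.10 on the log2 scale in the Low and 0.39 ± 0.32 in the High libraries (adjusted p 0.35, limma), and for Atp6v0a1 2.07 ± 0.17 and 1.70 ± 0.11 (0.458). For Ctsz it was -1.01 ± 0.37 and -0.55 ± 0.18, for Scarb2 -0.70 ± 0.37 and -0.24 ± 0.19, and for Atp6v1e1 1.24 ± 0.22 and 1.02 ± 0.04. The regulators had larger unadjusted p-values, with Tfeb at 0.33 ± 0.07 and 0.63 ± 0.31, Tfe3 at -0.03 ± 0.09 and -0.20 ± 0.14, and Mitf at -0.14 ± 0.09 and -0.02 ± 0.25. All 44 intervals of the difference lay within 1 log2 unit of 0, with a median half-width of 0.33. From the further pathway lists Csta1 alone was called, and of the suprabasal markers Sbsn. With the replicate block the calls also held Fuca1 (-0.63, limma adjusted p 0.0303), Atp6v0a4 (1.76, 0.0106), Krt5 (-0.30, 0.0404) and Krtdap (-0.90, 0.0032), the last in the direction opposite to Sbsn and lower in 3 of 3 pairs. Atp6v0a4 could not pass the filter without a Cyto-ID High library here too, so its call is no support.

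The strand setting of the counting is not given in the sources used here. The counts of 13 genes may therefore include reads of an annotated gene on the opposite strand (Atp6v0b, Atp6v1b2, Atp6v1e1, Atp6v1h, Ctsa, Ctsb, Ctsl, Ctsz, Lamp1, Npc1, Grn, Hexa and Ppt1). Glb1 overlaps a gene on its own strand, which does not depend on that setting.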

How the data were processed

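Organoid cells of 6 libraries were profiled with a droplet 3′ kit. The authors deposited 1 table per library of natural logs of 1 plus the UMIs of a gene per 10000 UMIs of the cell, a unit read from the values; all values gave whole UMIs within 0.001 and every cell summed to 10000. The submitters' processing notes name Cell Ranger 6.0.0, Seurat 4, mm10 and GRCm38. Cells with 500 or more non-zero genes were kept; no doublet caller was run and no free RNA was removed. CPM were averaged over the cells of a library or layer, divided by TMM factors (30% of log ratios and 5% of levels trimmed) and analysed as log2(CPM + 1), which understates changes of low genes. Genes with 1 CPM in 3 libraries entered limma 3.58.1 (R 4.3.3, trend, Benjamini-Hochberg over all genes, threshold 0.05), which was also tested on simulated data. Layers were compared with the library as a block, groups without one. No count model was run; the recovered UMIs were summed as an alternative. Replicate labels come from the titles. Deviations of same-labelled libraries correlated at 0.76 (F2), 0.58 (M3) and 0.15 (F6) over 8877 genes, although Cyto-ID Low F2 and Cyto-ID High F6 also correlated, at 0.17. Same-labelled libraries were taken as pairs in the counts of pairs and in the replicate block. The main fits between groups and of the interaction were unpaired. Alternatives were other scalings, pseudocounts, filters, depths and Krt13 limits, the replicate block and each library left out. Named were, per comparison, the called genes with the largest differences (at most 12), or the 5 smallest p-values where under 5 were called, the 3 regulators, up to 3 called genes of each further list, and any lysosomal gene with its level; Krtdap, Sbsn, Cd68 and genes called under the replicate block alone were named after their values were seen. The genes and lists were chosen with earlier results of these data known. One gene of a further list is not reported here by name.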

Additional observations from a re-analysis of the deposited data

Results flagged for a closer look

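Csta1, a stefin that inhibits cathepsins, had a layer difference that differed between the groups by -1.225 on the log2 scale (limma interaction, adjusted p 0.00285). Its layer difference was 3.70 ± 0.283 in the Low and 2.48 ± 0.209 in the High libraries (SD, n = 3), with no overlap. Below the Krt13 limit Csta1 had 41.1 (F2), 31.9 (M3) and 46.5 (F6) scaled CPM in Cyto-ID Low and 159 (F2), 79.2 (M3) and 451 (F6) in Cyto-ID High. The call was lost when low genes were kept (adjusted p 0.508, difference -1.225) and with cells of 1000 or more genes (0.101, difference -1.062). With a Krt13 limit of 4 the difference was -0.81 (limma adjusted p 0.0167). Over the libraries left out in turn, the adjusted p ran from 0.0061 to 0.0327.

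Sbsn, a suprabasal marker, had a layer difference of 0.66 ± 0.214 on the log2 scale in the Low and 1.73 ± 0.287 in the High libraries (SD, n = 3), a difference between the groups of 1.068 (limma interaction, adjusted p 0.0355), higher in 3 of 3 pairs. The adjusted p was above 0.05 without Cyto-ID High F2 (0.051), Cyto-ID High M3 (0.133), Cyto-ID Low F6 (0.117) or Cyto-ID High F6 (0.143), and with no filter on low values (0.508). So it was with a pseudocount of 0.1 CPM (0.0682), summed UMIs (0.0546), cells of 1000 or more genes (0.0536) and Krt13 limits of 2 (0.078) and 4 (0.15).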

How the results depend on the processing

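The 0 calls in the 3 Cyto-ID comparisons and the interaction stayed 0 under every alternative run, the replicate block and each library left out included. Over all genes the replicate block gave 67 calls over all cells, 81 below and 86 above the Krt13 limit and 283 for the interaction, beside 14, 27, 23 and 27 without it; without Cyto-ID High F6 the count above the limit was 0, and without Cyto-ID Low M3 the interaction had 107. Between layers, leaving out each library gave 31 to 33 lysosomal calls, 23 to 26 higher and 6 to 8 lower. With no replicate block there were 19 calls, 16 higher and 3 lower, and 4145 of 11995 genes were called. Plain CPM gave 12 higher and 19 lower, which shows the dependence on scaling. The 3 libraries of the highest depth, chosen after seeing the data as was the comparison of UMIs per cell, gave 23 higher and 6 lower. The shares of all genes called in them are not given here. With plain CPM the layer difference turned sign for Ctsa (-0.117), Ctsb (-0.173), Ctsh (-0.011), Ctsl (-0.052), Grn (-0.090), Npc2 (-0.284), Lamp1 (-0.101), Lamp2 (-0.072), Mcoln1 (-0.084), Atp6v1b2 (-0.018), Atp6v1c1 (-0.205), Atp6v1h (-0.268) and Mtor (-0.079). Genes near 0 and not called between layers turned sign elsewhere. Tpp1 did with a Krt13 limit of 2 (0.0011), Ppt1 with cells of 1000 or more genes (0.100) and over libraries left out (-0.148 to 0.099), and Npc1 with 1000 or more genes (0.00092), a limit of 2 (0.024), the 3 deepest libraries (0.031) and over libraries left out (-0.039 to 0.055). Mitf did with summed UMIs (0.047), 1000 or more genes (0.092), a limit of 2 (0.028) and UMIs per cell (0.020). Between groups, uncalled signs turned for Tfe3 over all cells with summed UMIs (0.033), 1000 or more genes (0.065), thinning (0.028) and over libraries left out (-0.198 to 0.064). Below the limit Tfe3 gave 0.073, 0.087 and 0.303 with those settings and -0.195 to 0.115 over libraries left out. Mitf turned with thinning over all cells (0.283) and below the limit (0.419). Above the limit Tfeb turned with 1000 or more genes (0.203) and over libraries left out (-0.226 to 0.042), and Tfe3 with 1000 or more genes (0.050). In the interaction Mitf turned with 1000 or more genes (-0.068), thinning (-0.403), a limit of 4 (-0.181) and over libraries left out (-0.027 to 0.192). The cause was not tested. The sparsest lysosomal genes were Mitf at 164 UMIs and Ctss at 17 UMIs in all.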
